A study of Mus musculus with 18 samples.

Results

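The 8 genes described here encode the MHC class I antigen processing pathway: the heavy chains H2-K1 and H2-D1, the light chain B2m, the peptide transporter subunits Tap1 and Tap2, the loading chaperone Tapbp, and the inducible proteasome subunits Psmb8 and Psmb9. They were taken by gene symbol from a table of 20985 genes measured by RNA sequencing of whole mouse testis, and all 8 were in it. All 8 also passed the filter for testing, for which a gene had to reach 1 in no fewer than 3 of the 18 libraries and which left 14164 genes. The mice were of the outbred ICR stock and 10 weeks of age in every group. The labels give 6 groups of 3 libraries. STZ+AOS received streptozotocin (STZ), a compound toxic to pancreatic beta cells, together with alginate oligosaccharide (AOS), short sugar chains from brown algae, at 10 mg/kg. STZ+AOS-FMT and STZ+control-FMT carry STZ and a faecal microbiota transplant (FMT) in their labels, tied to AOS at 10 mg/kg in the first of these names and to control material in the other; the labels do not describe the donors. STZ received streptozotocin, AOS received the oligosaccharide at 10 mg/kg, and control is labelled only by that word. The series asks how FMT acts on testes damaged by STZ. Nothing in the labels says that replicates are separate animals, and p-values then cover only the spread between samples, which may be technical.

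MHC class I molecules carry peptides from inside a cell to its surface, where CD8+ T cells read them. The proteasome cuts cellular proteins into peptides, and the inducible subunits take the place of constitutive ones when interferon is sensed. The TAP transporter moves the peptides into the endoplasmic reticulum, where tapasin holds an empty heavy chain and beta-2-microglobulin beside it until a peptide binds. The testis is a site of restrained immune responses: developing germ cells carry little class I on their surface, and macrophages, Leydig cells and vessels lie between the tubules.

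Levels are given in FPKM, which is scaled for transcript length and for library depth, so that levels of different genes can be set side by side. Fold changes are on the log2(FPKM + 1) scale, which understates the change of genes near 1 FPKM, and are given with their standard error (SE) from limma. A gene is called higher or lower at a Benjamini-Hochberg adjusted p under 0.05 over all 14164 genes. The sums over all genes lay between 561000 and 622200 per library, and the relative depth read from the steps between low values lay between 0.975 and 1.021 of the average library. The number of reads is unknown, so no counting interval is given. Marker lists of testis cells were present as the tissue label says: summed levels of 8 elongating spermatid genes were 25740 to 47180 FPKM in STZ libraries and 51800 to 58140 FPKM in control libraries.

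The 8 genes fell into a set well expressed throughout and a set near the lower limit of the test. B2m ranged over the 18 libraries from 45 to 184 FPKM with a median of 63.3 FPKM. The heavy chains and Tapbp had medians of 31.7 (H2-K1), 31.2 (H2-D1) and 22.4 (Tapbp) FPKM. Tap1, Tap2, Psmb8 and Psmb9 had medians between 1.82 and 2.94 FPKM and dropped below 1 FPKM in 1 or 2 of the 18 libraries each.

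Apart from B2m on chromosome 2, at chr2:122147686-122153083 (GRCm38, plus strand), the genes lie on chromosome 17 in the mouse MHC. Psmb9, Tap1, Psmb8 and Tap2 are neighbours within 34.3 kb. Psmb9 spans chr17:34181987-34187764 on the minus strand, Tap1 chr17:34187553-34197225, Psmb8 chr17:34197721-34201454 and Tap2 chr17:34203527-34216321, all on the plus strand. Tapbp lies at chr17:33915899-33929292 (plus strand), H2-K1 at chr17:33996017-34000347 (minus strand) and H2-D1 at chr17:35262730-35267499 (plus strand). Tap1 and Psmb9 share 212 exonic bases on opposite strands in GENCODE M21, 7.18% of the exonic bases of Tap1 and 15.7% of those of Psmb9. Antisense transcripts cover 15% of the exonic bases of Tap2, 23.5% of Tapbp and 11.4% of Psmb8. Whether the counting used strand is not given in the sources used here, so reads of such partners cannot be told apart. Of the 50-base windows of H2-D1 transcripts, 13.9% also occur in other genes, as do 6.87% of those of H2-K1; the split of such reads is uncertain. Heavy chain genes are among the most variable genes of the mouse and ICR is outbred, so levels of H2-K1 and H2-D1 also depend on how far each animal's alleles match the reference; this was not tested.

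Both classical heavy chains rose in STZ testes to levels clear of every other group. H2-K1 and H2-D1 bind the peptide and are read by CD8+ T cells. H2-K1 was at 40.74, 78.83 and 73.88 FPKM in the STZ libraries, against 26.68, 26.54 and 31.75 FPKM in the control libraries. In the other groups it was at 34.97, 26.02 and 27.9 FPKM with STZ+AOS, 30.42, 33.48 and 32.02 with STZ+AOS-FMT, 31.73, 29.18 and 31.41 with STZ+control-FMT, and 32.75, 33.77 and 31.32 with AOS. STZ replicate 1 was the lowest STZ library and still lay above all 15 others. H2-D1 was at 57.58, 98 and 98.26 FPKM in STZ libraries, against 31.22, 21.46 and 29.72 FPKM in control libraries. In the other groups it was at 31.37, 30.64 and 30.34 FPKM with STZ+AOS, 23.09, 25.52 and 31.1 with STZ+AOS-FMT, 34.13, 34.85 and 38.54 with STZ+control-FMT, and 21.26, 30.11 and 33.33 with AOS. H2-D1 therefore had the same gap between STZ and the rest, and its STZ+control-FMT libraries also lay above all 3 STZ+AOS libraries. By mean level STZ was 2.28 times control for H2-K1 and 3.08 times for H2-D1. The fitted log2 fold changes were 1.11 for H2-K1 (SE 0.17, adjusted p = 8.58e-05, limma) and 1.56 for H2-D1 (SE 0.20, adjusted p = 1.01e-05, limma).

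The upstream sequences of these heavy chains and of B2m and Tap1 are shown because the genes moved together in part while their promoters differ in the motifs they hold. Each is the 250 bases before the RefSeq start of transcription on GRCm38.p6, written 5′ to 3′ on the strand of the gene: H2-K1 from chr17:34000348-34000597 (minus), H2-D1 from chr17:35262844-35263093 (plus), B2m from chr2:122147437-122147686 (plus) and Tap1 from chr17:34187306-34187555 (plus). Capitals mark every match on either strand to an interferon-type motif (GAAANNGAA or, with the other spacing, GAANNGAAA), a palindromic motif (TTCNNNGAA), an X2-type motif (TGACG), a Y-type motif (CCAAT) or a kappaB-type motif (GGGNNTTCC).
H2-K1: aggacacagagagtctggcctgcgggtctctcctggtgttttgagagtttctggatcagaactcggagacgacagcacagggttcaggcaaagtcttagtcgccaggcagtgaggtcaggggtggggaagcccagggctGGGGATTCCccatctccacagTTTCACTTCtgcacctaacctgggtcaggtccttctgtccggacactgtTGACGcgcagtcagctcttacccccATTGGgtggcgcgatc
H2-D1: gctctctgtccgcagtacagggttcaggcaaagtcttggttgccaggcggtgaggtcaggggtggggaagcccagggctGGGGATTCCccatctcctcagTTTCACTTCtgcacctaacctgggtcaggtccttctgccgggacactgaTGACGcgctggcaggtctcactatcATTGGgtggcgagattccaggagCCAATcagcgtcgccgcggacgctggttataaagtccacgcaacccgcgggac
B2m: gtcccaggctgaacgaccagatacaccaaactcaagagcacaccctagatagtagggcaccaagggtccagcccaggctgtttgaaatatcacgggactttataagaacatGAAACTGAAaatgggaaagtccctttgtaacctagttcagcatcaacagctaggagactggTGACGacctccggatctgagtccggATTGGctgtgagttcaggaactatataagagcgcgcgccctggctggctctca
Tap1: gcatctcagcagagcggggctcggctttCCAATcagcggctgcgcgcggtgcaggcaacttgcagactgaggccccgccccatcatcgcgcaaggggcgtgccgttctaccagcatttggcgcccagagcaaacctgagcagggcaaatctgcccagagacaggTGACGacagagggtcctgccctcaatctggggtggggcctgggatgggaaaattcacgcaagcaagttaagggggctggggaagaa

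The search covered 300 bases, 250 before and 50 after the start, for 7 of the 8 genes and for 32851 promoters of the RefSeq table; Tap2 was not among them. In these 7 windows no match overlapped another. The windows of H2-K1 and H2-D1 were 90.4% identical over 228 aligned columns. Both hold the kappaB-type motif, at −111 in H2-K1 and −171 in H2-D1, and the interferon-type motif of the other spacing at −90 and −150; that spacing was added after the sequences were seen. RefSeq lists 2 starts for H2-K1, so its positions depend on the start used here. The second CCAAT match of H2-K1, at position 9, falls after that start and outside the 250 bases shown. The kappaB-type motif occurs in 5.82% of all promoters and the interferon-type motif of this spacing in 7.52%. B2m was the only one of the 7 with GAAANNGAA, at −139, which 8.56% of all promoters hold, and Psmb8 the only one with TTCNNNGAA, at −97, which 8.3% hold. TGACG was found in 5 of the 7 windows against 20.8% of all promoters, CCAAT in 6 of 7 against 37.4%, and the GC box GGGCGG, left in lower case, in 3 of 7 against 35.7%. Tap1 and Psmb9 face away from each other with starts 226 bases apart, so their windows share 275 of 300 bases and count nearly the same letters. These are matches of letters and say nothing of binding.

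**Figure D1:**
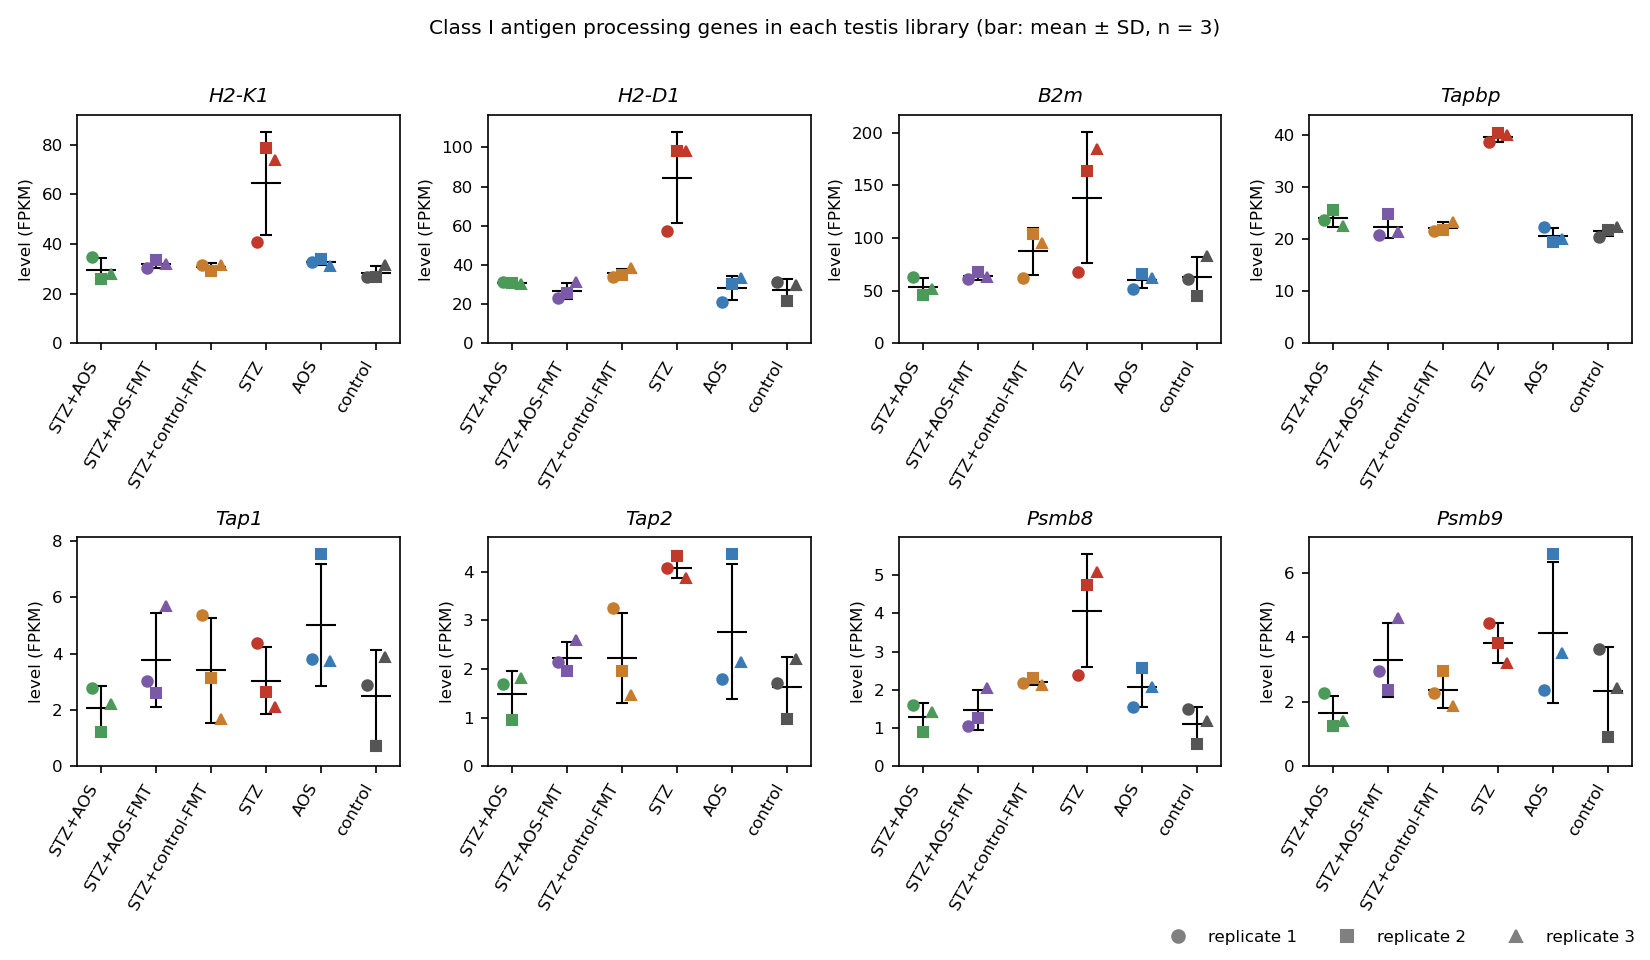
Level of each of the 8 genes in FPKM (y axis, from 0) in each library of the 6 groups (x axis), with points for libraries, shapes for replicate numbers and bars for the mean ± SD (n = 3). STZ libraries stand above all others for H2-K1, H2-D1 and Tapbp, while the STZ libraries of B2m spread from 67.36 to 184.5 FPKM and those of Tap1 and Psmb9 overlap the other groups.

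B2m, the light chain that pairs with class I heavy chains, was higher in STZ testes on average but not in every library. It was at 67.36, 163.71 and 184.5 FPKM in STZ libraries, against 60.69, 45.03 and 83.21 FPKM in control libraries. In the other groups B2m was at 63.3, 46.16 and 52.1 FPKM with STZ+AOS, 60.96, 67.69 and 63.32 with STZ+AOS-FMT, 62.36, 104.06 and 95.77 with STZ+control-FMT, and 51.87, 65.64 and 62.47 with AOS. STZ replicate 1 lay inside the range of the control libraries, and the other 2 STZ libraries lay above all 15 libraries of the other groups. The log2 fold change of STZ over control was 1.04 (SE 0.30, 95% interval 0.4 to 1.68, adjusted p = 0.00854, limma); leaving out STZ replicate 1 gave 1.49, and leaving out STZ replicate 3 gave 0.77, which was not called (adjusted p = 0.0572). A model of the 6 STZ and control libraries alone lost the call too (1.04, adjusted p = 0.0708).

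The 3 highest B2m values outside STZ came from libraries with high levels of the epididymis gene Crisp1. Crisp1, a secreted protein of the epididymis, was at 255.65 FPKM in STZ+control-FMT replicate 2, at 33.64 FPKM in STZ+control-FMT replicate 3 and at 158.77 FPKM in control replicate 3, against at most 13.04 FPKM in the other 15 libraries. The part of this in B2m was not tested. With these 3 libraries left out, a choice made after seeing the data, the log2 fold change of B2m was 1.26 for STZ over control (adjusted p = 0.00637, limma), with 2 control libraries. The same choice leaves 1 STZ+control-FMT library, at 62.36 FPKM, against 60.96 to 67.69 FPKM with STZ+AOS-FMT. The 3 libraries high in Crisp1 were not alike in other epididymis genes. Cst11, Lcn8 and Lcn9 were at 77.81, 70.21 and 76.7 FPKM in STZ+control-FMT replicate 3. They were at 2.02, 1.3 and 1.12 FPKM in STZ+control-FMT replicate 1, and at most 0.44 FPKM in STZ+control-FMT replicate 2 and control replicate 3.

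Tapbp encodes tapasin, which bridges the transporter and the empty heavy chain, and it rose in every STZ library by about the same amount. It was at 38.68, 40.51 and 40 FPKM in STZ libraries, against 20.46, 21.88 and 22.42 FPKM in control libraries. Tapbp was at 23.8, 25.67 and 22.54 FPKM with STZ+AOS, 20.82, 24.89 and 21.43 with STZ+AOS-FMT, 21.53, 21.7 and 23.39 with STZ+control-FMT, and 22.45, 19.5 and 20.12 with AOS. No library of another group came near the STZ libraries, and STZ replicate 1 did not stand apart from the other STZ libraries as it did for B2m and H2-K1. The mean level was 1.84 times control in STZ, with a log2 fold change of 0.85 (SE 0.07, adjusted p = 2.21e-07, limma), smaller than that of the heavy chains and with the smallest error of the 8.

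Of the transporter subunits, Tap2 passed the test in STZ over control and Tap1 did not. Tap2 was at 4.08, 4.32 and 3.87 FPKM in STZ libraries, against 1.71, 0.98 and 2.2 FPKM in control libraries. Elsewhere Tap2 was at 1.69, 0.95 and 1.82 FPKM with STZ+AOS, 2.14, 1.95 and 2.6 with STZ+AOS-FMT, 3.26, 1.96 and 1.46 with STZ+control-FMT, and 1.79, 4.36 and 2.15 with AOS. All STZ libraries lay above the control libraries, but AOS replicate 2 was the highest of the 18. Tap2 rose by 0.98 on the log2 scale in STZ over control (SE 0.24, adjusted p = 0.00312, limma), a call lost under quantile normalization, where the value was 0.58. Tap1, the other subunit of the same transporter, was at 4.39, 2.64 and 2.09 FPKM in STZ libraries, against 2.87, 0.73 and 3.89 FPKM in control libraries. Elsewhere Tap1 was at 2.76, 1.21 and 2.2 FPKM with STZ+AOS, 3.01, 2.59 and 5.68 with STZ+AOS-FMT, 5.38, 3.13 and 1.69 with STZ+control-FMT, and 3.79, 7.52 and 3.72 with AOS. The STZ and control libraries of Tap1 overlapped, with a log2 fold change of 0.30 (95% interval −0.54 to 1.14, adjusted p = 0.546, limma) that was −0.07 under quantile normalization and −0.05 under median centring. The ratio of Tap1 to Tap2 was 108, 61.1 and 54% in STZ libraries, against 168, 74.5 and 177% in control libraries, and the difference had p = 0.2 in an exact permutation test (adjusted p = 0.286 over 10 ratios), which for 3 against 3 cannot go below 0.1.

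Of the inducible proteasome subunits, Psmb8 rose in STZ testes and Psmb9 did not pass the test. Psmb8 replaces the constitutive subunit Psmb5 and was at 2.39, 4.74 and 5.09 FPKM in STZ libraries, against 1.49, 0.59 and 1.19 FPKM in control libraries. Outside STZ and control, Psmb8 was at 1.59, 0.88 and 1.41 FPKM with STZ+AOS, 1.06, 1.26 and 2.05 with STZ+AOS-FMT, 2.18, 2.3 and 2.13 with STZ+control-FMT, and 1.55, 2.58 and 2.06 with AOS. STZ replicate 1 lay just under AOS replicate 2, and the other 2 STZ libraries lay above every library of the other groups. The mean of Psmb8 was 3.74 times control in STZ, the highest ratio of the 8, with a log2 fold change of 1.26 (SE 0.22, adjusted p = 0.000231, limma). Psmb9, which replaces Psmb6, was at 4.42, 3.82 and 3.2 FPKM in STZ libraries, against 3.63, 0.9 and 2.43 FPKM in control libraries. Outside STZ and control, Psmb9 was at 2.26, 1.24 and 1.4 FPKM with STZ+AOS, 2.95, 2.36 and 4.58 with STZ+AOS-FMT, 2.28, 2.96 and 1.85 with STZ+control-FMT, and 2.36, 6.56 and 3.49 with AOS. The groups overlapped, and the log2 fold change of Psmb9 was 0.62 (95% interval −0.04 to 1.28, adjusted p = 0.102, limma); without control replicate 1 it was 0.91 and passed.

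Set against the constitutive subunit that it replaces, Psmb8 was still a small share. Psmb5 itself was at 59.79, 65.03 and 70.47 FPKM in STZ libraries, against 50.32, 52.21 and 54.09 FPKM in control libraries. Psmb8 was 4, 7.29 and 7.22% of Psmb5 in STZ libraries, against 2.96, 1.13 and 2.2% in control libraries. Every STZ library lay above every control library, a log2 difference of 1.61, and the exact two-sided permutation test gave p = 0.1, the smallest that 3 against 3 allows (adjusted p = 0.25 over 10 ratios). Psmb10, the inducible partner of Psmb7, followed the same pattern at 2.39, 4.5 and 4.67% of Psmb7 in STZ libraries, against 2.03, 1.52 and 1.46% in control libraries (exact permutation p = 0.1, adjusted 0.25). Psmb9 was 3.51, 3.13 and 2.45% of Psmb6 in STZ libraries, against 2.97, 0.807 and 2.17% in control libraries, which overlap (exact permutation p = 0.2, adjusted 0.286). The ratio of H2-D1 to H2-K1 was 141, 124 and 133% in STZ libraries, against 117, 80.9 and 93.6% in control libraries, again without overlap and with an exact permutation p of 0.1 (adjusted 0.25). With a smallest p of 0.1, none of the 10 ratios could pass an adjusted 0.05 in this design.

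**Figure D2:**
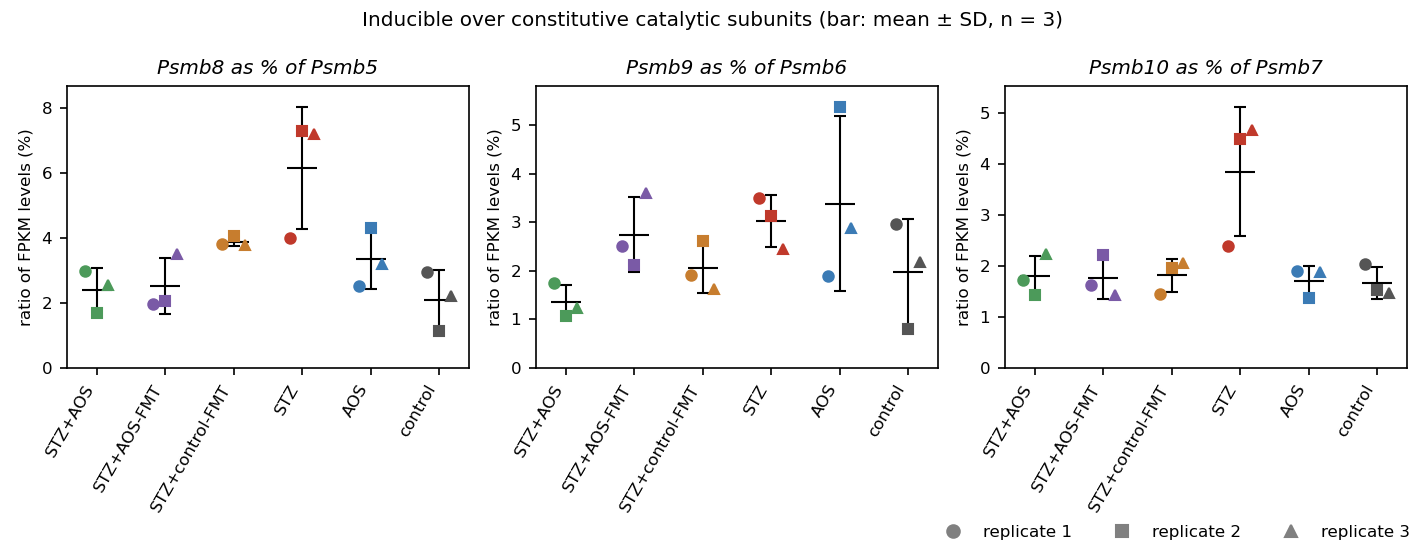
Inducible catalytic subunits as a percentage of the constitutive subunit each replaces (y axis, ratio of FPKM levels, from 0) in each library of the 6 groups (x axis), with bars for the mean ± SD (n = 3). Psmb8 over Psmb5 averaged 6.17% in STZ and 2.1% in control libraries, and Psmb10 over Psmb7 averaged 3.85% in STZ and 1.67% in control libraries, while Psmb9 over Psmb6 spread widely in AOS and control libraries.

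Across STZ and control, 6 of the 8 genes were called higher and none lower (H2-K1, H2-D1, B2m, Tapbp, Tap2 and Psmb8). Of all genes tested 43.2% were called higher and 12% lower, so calls were common in this comparison. The libraries of the groups did not overlap for 5 of the 8 genes, against 42.1% of all genes with STZ above control. The median log2 fold change was 1.01 over the 8 genes and 0.17 over all genes tested. That median of all genes depends on the scaling, at −0.06 after quantile normalization and −0.17 after median centring, and the share of genes called higher and lower was then 22.3% and 28.9% (quantile) or 18.9% and 43.2% (centring). The median of the 8 genes stood 0.84 above that of all genes as deposited, 0.87 above it after quantile normalization and 0.84 above it after centring, and 5 and 6 members were called higher under these scalings. In whole tissue, fewer cells of a type and less RNA per cell cannot be told apart.

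The 3 treated STZ groups share the same 3 STZ libraries as their comparator, so their fold changes below are not independent of each other or of STZ over control. In STZ+AOS testes 7 of the 8 genes were called lower than in STZ (all genes: 43.1% lower), with a median log2 fold change of −1.05 against −0.17 for all genes. H2-D1 fell by 1.39 on the log2 scale (adjusted p = 3.31e-05), B2m by 1.23 (0.00291), Psmb8 by 1.11 (0.000645), H2-K1 by 1.05 (0.000140), Tap2 by 1.05 (0.00192), Psmb9 by 0.88 (0.0249) and Tapbp by 0.71 (1.84e-06), all with limma. Tap1 stood at −0.40 (95% interval −1.24 to 0.44, adjusted p = 0.416). Psmb9 lost its call when STZ replicate 1 or 2 or STZ+AOS replicate 2 or 3 was left out (−0.88 to −0.78, adjusted p 0.0574 to 0.0833, limma). The libraries of these groups did not overlap for any of the 7 called genes (all genes: 41.1% lower without overlap). Markers of other cell types were lower too, and their part was not tested: 14 of 15 macrophage genes (summed level 359 to 416 FPKM with STZ+AOS, 477 to 514 FPKM with STZ), all 12 Sertoli genes (835 to 866 and 1788 to 2291 FPKM), 9 of 11 peritubular genes (85.6 to 115 and 216 to 329 FPKM), 7 of 9 endothelial genes and 6 of 8 Leydig genes. The macrophage gene Aif1 made up 83.1 to 85.5% of the macrophage sum with STZ+AOS and 46.8 to 69.4% with STZ. Without Aif1, left out after its values were seen, that sum was 54.7 to 70.5 FPKM with STZ+AOS and 146 to 273 FPKM with STZ. Of the 8 Leydig genes, 2 were lower than in STZ without overlap. Against control, 7 of them were lower with STZ+AOS without overlap (all genes: 8.86%), though none was called. Among markers called higher than in STZ were all 8 elongating and all 6 round spermatid genes and 1 macrophage gene (all genes: 11.9% higher).

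In STZ+AOS-FMT testes 6 of the 8 genes were called lower than in STZ (all genes: 44.5%), with a median of −0.87 against −0.18. The heavy chain H2-D1 fell by 1.60 (SE 0.20, adjusted p = 7.43e-06, limma) and H2-K1 by 0.93 (SE 0.17, adjusted p = 0.000346). Psmb8 fell by 1.02 (0.00118), Tapbp by 0.80 (3.76e-07), Tap2 by 0.66 (0.0296) and B2m by 0.98 (0.0121), with overlap between the libraries for B2m alone of these 6 (all genes: 42.7% lower without overlap). Psmb9 was at −0.19 (95% interval −0.85 to 0.47) and Tap1 at 0.22 (−0.62 to 1.06), neither called. The calls of B2m and Tap2 rested on few libraries. B2m was at −0.79 to −0.71 without STZ replicate 2 or 3 (adjusted p 0.0603 to 0.0768, limma), and Tap2 at −0.69 to −0.6 without either of those or STZ+AOS-FMT replicate 1 or 2 (adjusted p 0.0566 to 0.0855, limma). Of the cell type markers, 12 of 15 macrophage genes (sum 391 to 414 FPKM with STZ+AOS-FMT, 477 to 514 FPKM with STZ), all 12 Sertoli, 9 of 11 peritubular, 8 of 9 endothelial and 1 of 8 Leydig genes were lower. Without Aif1 the macrophage sum was 68.7 to 80.3 FPKM with STZ+AOS-FMT and 146 to 273 FPKM with STZ. Among markers called higher were all 8 elongating and 5 of 6 round spermatid genes and 1 macrophage gene (all genes: 12% higher). The part of these markers was not tested.

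In STZ+control-FMT testes 5 of the 8 genes were called lower than in STZ (all genes: 39.9%), with a median of −0.66 against −0.15. H2-D1 fell by 1.18 (SE 0.20, adjusted p = 0.000166, limma), H2-K1 by 0.99 (0.000287), Tapbp by 0.81 (5.05e-07), Tap2 by 0.70 (0.0253) and Psmb8 by 0.62 (0.0297). B2m was at −0.57 (95% interval −1.21 to 0.07, adjusted p = 0.127), and it passed at −1.02 without STZ replicate 1. Tap2 lost its call without STZ replicate 2 or 3 or STZ+control-FMT replicate 2 or 3 (−0.73 to −0.52, adjusted p 0.0523 to 0.119, limma), and Psmb8 without any of these or STZ+control-FMT replicate 1 (−0.64 to −0.46, adjusted p 0.0525 to 0.142, limma). With the 3 libraries high in Crisp1 left out, 1 STZ+control-FMT library is left and is assumed to vary like the other groups. The values were then −0.94 for H2-K1, −1.24 for H2-D1, −0.85 for Tapbp, −1.01 for B2m, −0.63 for Psmb8 and −0.26 for Tap2. Lower markers were 12 of 15 macrophage (sum 404 to 435 FPKM with STZ+control-FMT, 477 to 514 FPKM with STZ), all 12 Sertoli, 6 of 11 peritubular, 5 of 9 endothelial and 1 of 8 Leydig genes. Without Aif1 the macrophage sum was 67.3 to 81.9 FPKM with STZ+control-FMT and 146 to 273 FPKM with STZ. Among markers called higher were all 8 elongating and 5 of 6 round spermatid genes and 1 macrophage gene (all genes: 11.4% higher). The part of these markers was not tested. In the 3 comparisons with STZ the scaling also shifted all genes: after quantile normalization 21.9, 22.6 and 21.5% of all genes were called lower and 29.9, 29.8 and 26.2% higher, in the order STZ+AOS, STZ+AOS-FMT and STZ+control-FMT. The members called lower were then 6, 5 and 3 in that order, and 6, 4 and 3 after median centring, where 19.9, 19.4 and 17.7% of all genes were lower and 44.6, 44.8 and 41.9% higher.

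**Figure D3:**
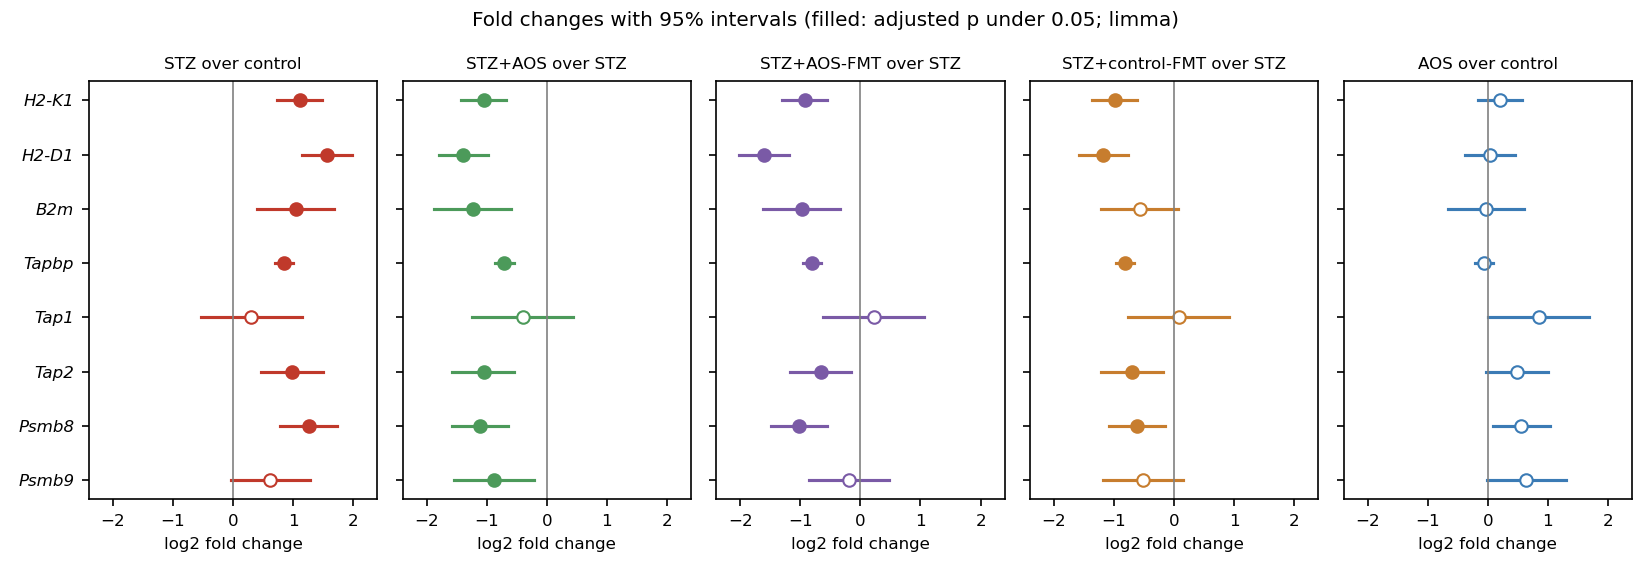
Log2 fold change (x axis, log2 of FPKM + 1) of each of the 8 genes with its 95% interval, in 5 comparisons; filled points have an adjusted p under 0.05 (limma). H2-K1, H2-D1 and Tapbp lie above 0 in STZ over control and below 0 in all 3 treated STZ groups over STZ, and no gene is filled in AOS over control.

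The transplants were compared with each other for any difference between the transplanted materials. None of the 8 genes was called in STZ+AOS-FMT over STZ+control-FMT, as was no gene of the table (0% called by limma; 866 genes and 1 member had an unadjusted p under 0.05). H2-D1 was that member, at −0.43 (95% interval −0.84 to −0.01, unadjusted p = 0.0446, adjusted p = 0.814), with all 3 STZ+AOS-FMT libraries below the STZ+control-FMT libraries. Psmb8 was at −0.40 (−0.88 to 0.07), also without overlap, and B2m at −0.41 (−1.05 to 0.23). Of all genes, 11.2% were lower without overlap in this comparison. The Psmb8 libraries were close, with a highest STZ+AOS-FMT value of 2.05 FPKM and a lowest STZ+control-FMT value of 2.13 FPKM. H2-K1 was at 0.05 (−0.32 to 0.42) and Tapbp at 0.01 (−0.14 to 0.16), intervals that leave room for less than the STZ difference of either gene.

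Against control, the treated STZ groups gave no called member. STZ+AOS over control had 6 called genes in the whole table (0.0424%; 1130 at an unadjusted p under 0.05) and none of the 8, and no member had an unadjusted p under 0.05. Tapbp was at 0.15 in that comparison (95% interval −0.01 to 0.30) with STZ+AOS libraries all above control (all genes: 8.92% higher without overlap). H2-D1 was at 0.18 (−0.24 to 0.59). STZ+AOS-FMT over control had 0% called by limma (927 genes and 0 members at an unadjusted p under 0.05), with H2-D1 at −0.04 (−0.45 to 0.38) and B2m at 0.07 (−0.58 to 0.71). STZ+control-FMT over control also had 0% called (883 genes and 1 member at an unadjusted p under 0.05). Psmb8 was that member at 0.64 (unadjusted p = 0.0110, adjusted p = 0.692), while B2m was at 0.48 (−0.16 to 1.12) and H2-D1 at 0.39 (−0.03 to 0.80). For Psmb8 and H2-D1, 2 of the 8 genes, all STZ+control-FMT libraries lay above control (all genes: 10.6% higher without overlap). The intervals against control are wide for B2m, Tap1, Tap2 and Psmb9, and a p that misses the threshold does not show equal levels.

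AOS without STZ was compared with control for the effect of the oligosaccharide alone. No member and no gene was called by limma (0%; 1273 genes and 2 members had an unadjusted p under 0.05). Tap1 was at 0.85 (95% interval 0.01 to 1.69, unadjusted p = 0.0474, adjusted p = 0.552) and Psmb8 at 0.56 (0.09 to 1.03, unadjusted p = 0.0225, adjusted p = 0.499). Psmb8 alone of the 8 had all AOS libraries above control (all genes: 7.65% higher without overlap). Its lowest AOS value was 1.55 FPKM and its highest control value 1.49 FPKM. Psmb9 was at 0.64 (−0.02 to 1.30) and Tap2 at 0.49 (−0.03 to 1.00), while the heavy chains, B2m and Tapbp lay between −0.06 and 0.20. Without control replicate 2 Tap1 was at 0.41, Psmb8 at 0.38, Psmb9 at 0.28 and Tap2 at 0.29, and without AOS replicate 2 Tap1 was at 0.57, Psmb9 at 0.32 and Tap2 at 0.20. AOS replicate 2 was the highest AOS library for 6 of the 8 genes and control replicate 2 the lowest control library for 7.

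The effect of AOS with STZ (STZ+AOS over STZ) was then set against its effect without STZ (AOS over control) by an interaction term. It was called lower for 7 of the 8 genes (all genes: 29.1% lower), with a median of −1.34 against −0.16 for all genes. Quantile normalization put the median of all genes at 0.07 and called 13.9% lower and 16% higher; median centring put it at 0.15 and called 13.1% lower and 29.6% higher. Each of the scalings called 6 members, without Psmb9 in the quantile fit (−1.13, adjusted p = 0.0683, limma) and without B2m in the centred one (−0.89). Psmb8 stood at −1.67 (SE 0.31, adjusted p = 0.00119, limma), Tap2 at −1.54 (SE 0.34, adjusted p = 0.00349) and H2-D1 at −1.42 (SE 0.28, adjusted p = 0.00150). Tap1 was at −1.25 but with an SE of 0.56 it was not called (adjusted p = 0.0942), but without control replicate 3 it was, at −1.55. B2m, at −1.20 (SE 0.43, adjusted p = 0.0390), lost its call in 8 of the 12 fits that left out a library (−1.2 to −0.93, adjusted p 0.0668 to 0.116, limma): STZ, STZ+AOS and AOS replicates 2 and 3 and control replicates 1 and 2. The F test for any difference among the 6 groups called 6 of the 8 genes (all genes: 52.3%), leaving out Tap1 (adjusted p = 0.295) and Psmb9 (adjusted p = 0.0924).

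Ordered by mean level over the 6 groups, STZ came highest for H2-K1, H2-D1, B2m, Tapbp, Tap2 and Psmb8. The STZ libraries did not overlap those of the next group for H2-K1, H2-D1, Tapbp and Psmb8, and they did for B2m (next STZ+control-FMT) and Tap2 (next AOS). For Psmb8 the next group was STZ+control-FMT, and its STZ libraries did overlap AOS, with STZ replicate 1 at 2.39 and AOS replicate 2 at 2.58 FPKM. The share of all genes with such a gap to the next group was not computed. AOS came highest for Tap1 and Psmb9, overlapping the group below it. Below the top place no neighbouring groups were separated, except that for H2-D1 STZ+control-FMT lay clear of STZ+AOS.

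The libraries of a group did not move as a block across the 8 genes. STZ replicate 1 was the lowest STZ library for H2-K1, H2-D1, B2m, Tapbp and Psmb8 and the highest for Tap1 and Psmb9. Summed over the 8 genes, STZ libraries were at 220, 397 and 411 FPKM, against 149, 118 and 177 FPKM in control libraries, with the other groups between 133 and 200 FPKM. Without STZ replicate 1 the same 6 genes were called higher in STZ than in control, with H2-K1 at 1.4, H2-D1 at 1.82 and Psmb8 at 1.53 on the log2 scale. Tap2 and Psmb9 shared their lowest library in all 6 groups, but their highest in 2 and the whole order in 2. Psmb8 and Psmb9 ranked the 3 libraries alike in 4 of the 6 groups, while H2-K1 and H2-D1 did so in 0 of the 6. These are extremes among all pairs of the 8 genes, and no test was run on them.

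**Figure D4:**
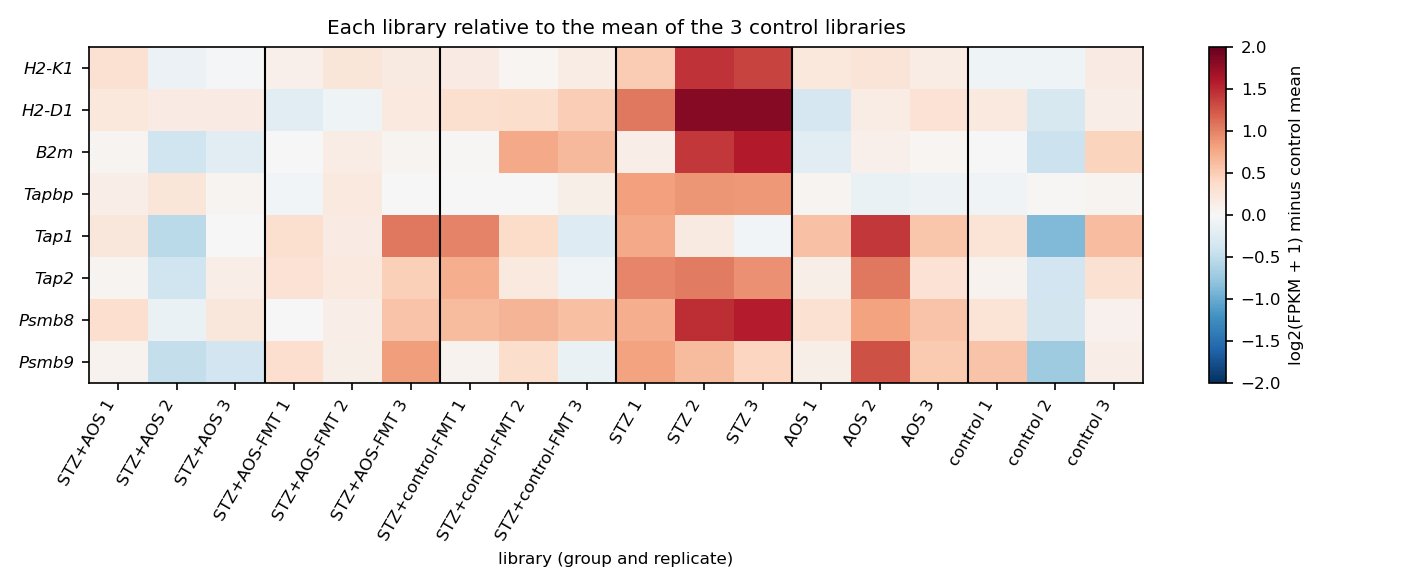
Colour gives log2(FPKM + 1) of each gene (rows) in each library (columns, by group and replicate) minus its mean over the 3 control libraries. STZ replicates 2 and 3 are the darkest columns for H2-K1, H2-D1, B2m and Psmb8, STZ replicate 1 is paler there, and Tap1, Tap2 and Psmb9 are dark in AOS replicate 2.

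Other genes of the pathway were taken from lists chosen with earlier results of these data known, and the counts that follow describe those lists. Of all genes, 43.2% were higher and 12% lower in STZ over control. These shares were 22.3% and 28.9% after quantile normalization, and 18.9% and 43.2% after median centring. A gene that passes the filter only through STZ libraries is bound to be higher there, so counts over tested genes are not read as support. Of the other class I heavy chains, 6 of 21 in the table were tested and 6 were higher in STZ than in control, 5 of them without overlap (all genes: 42.1% higher without overlap). H2-T23, a non-classical heavy chain that binds leader peptides of other class I molecules, was at 3.79, 6.24 and 8.64 FPKM in STZ libraries, against 2.12, 2.17 and 1.43 FPKM in control libraries (log2 fold change 1.27, adjusted p = 0.000102, limma). Fcgrt, the heavy chain of the neonatal Fc receptor, pairs with B2m but binds antibodies and not peptides. It was at 6.26, 15.64 and 14.32 FPKM in STZ libraries, against 4.82, 4.26 and 4.02 FPKM in control libraries (1.20, adjusted p = 0.000261). Of the loading and trimming genes outside the 8, 13 were tested with 5 higher and 1 lower, and a median of 0.16; under median centring 1 was higher and 7 were lower. Among them Blmh, a cytosolic aminopeptidase, was at 0.74, Uggt1, which checks glycoprotein folding, at 0.54, the chaperone Calr at 0.25, and Thop1, which destroys cytosolic peptides, at −0.19.

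The inducible proteasome list held 4 of 5 genes higher, with a median of 0.96; under median centring 3 were higher and 1 lower. Psmb10 rose by 1.02 (adjusted p = 0.000470), and the activator subunits Psme1 and Psme2, which open the proteasome core, by 0.98 (0.00142) and 0.96 (0.000417). Psme1 was at 19.75, 39.42 and 45.41 FPKM in STZ libraries, against 16.18, 14.86 and 17.59 FPKM in control libraries, so its STZ replicate 1 was again the lowest of the 3. Of the constitutive subunits 14 of 20 were higher and 3 lower with a median of 0.26 (all genes: 43.2% higher, 12% lower and a median of 0.17). Under median centring the median turned to −0.08, with 1 higher and 7 lower (all genes: 18.9% higher and 43.2% lower). Psmb5 was at 0.31 (0.000400), Psmb7 at 0.18 (0.00737) and Psmb6 at 0.13 (0.0688, not called).

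Regulators of class I genes and interferon signalling genes were higher in part. Of 18 regulators 13 were higher and none lower, with a median of 0.50 that was 0.20 after quantile normalization, where 8 were higher and 2 lower. Irf1, an interferon-induced activator of class I genes, was at 1.00 (adjusted p = 0.000586, limma), the NF-kappaB subunits Relb and Rela at 1.28 (4.63e-05) and 0.51 (1.57e-06), and Nfyc, which binds CCAAT letters, at 0.56 (2.18e-05). Nlrc5, the transactivator of class I genes, was at 0.63, 0.99 and 0.83 FPKM in STZ libraries, against 1.15, 0.76 and 1.27 FPKM in control libraries, and was not called (−0.18, adjusted p = 0.369). Of the interferon ligands, receptors and kinases 9 of 13 were tested and 8 were higher, with a median of 0.86. The receptor chain Ifngr2 was at 0.80, the kinases Jak1 and Jak2 at 0.96 and 0.86, and Socs3, a feedback inhibitor of cytokine signalling, at 2.05. Ifng, the ligand, was listed at 0 in 17 of the 18 libraries and at 0.06 FPKM in control replicate 2.

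Class II presentation genes, which load peptides from outside the cell in macrophages, dendritic cells and B cells, had 6 of 7 tested genes higher and a median of 1.67. Cd74, the invariant chain, was at 44.3, 112.24 and 83.42 FPKM in STZ libraries, against 9.65, 10.21 and 9.3 FPKM in control libraries (2.82, adjusted p = 3.12e-06, limma). Ctss, the protease that trims Cd74, was at 2.32 and H2-Aa and H2-Ab1, the class II chains, at 2.68 and 1.67, while H2-Eb1 was at −0.14 and not called. In STZ+AOS, STZ+AOS-FMT and STZ+control-FMT over STZ, in that order, 5, 5 and 5 of the 7 class II genes were lower, and so were 5, 5 and 5 of the 5 inducible proteasome genes, 6, 5 and 4 of the 6 heavy chains and 13, 11 and 11 of the 18 regulators. Of all genes, 43.1, 44.5 and 39.9% were lower in the same order. Median centring left 3, 4 and 3 inducible proteasome genes lower with 1 higher in each. It turned the constitutive list from 14, 14 and 15 lower to 4, 3 and 2 lower with 8, 9 and 7 higher. Of all genes, 19.9, 19.4 and 17.7% were then lower and 44.6, 44.8 and 41.9% higher.

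**Figure D5:**
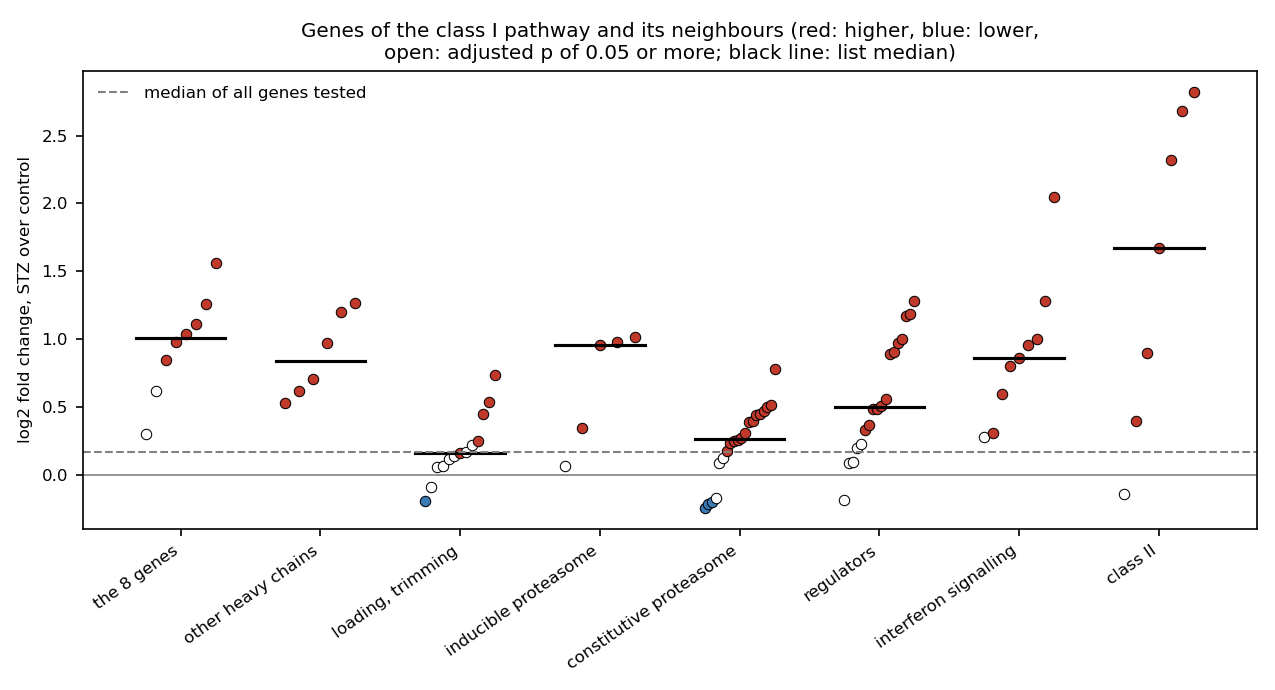
Log2 fold change of STZ over control (y axis) of each tested gene of the 8 and of 7 lists (x axis); red points were called higher, blue points lower, open points neither, black lines are list medians and the dashed line is the median of all genes, 0.17. The 8 genes, the inducible proteasome and the interferon list have medians of 1.01, 0.96 and 0.86, the loading and trimming list sits at the dashed line, and class II has the highest median, 1.67.

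Markers of other cell types moved in the comparison of STZ with control, and their part in the class I levels was not tested. Of all genes, 43.2% were called higher there and 12% lower, with a median of 0.17. Of 15 tested macrophage genes 12 were higher and 1 lower in STZ, with a median of 1.01. Their summed level was 477 to 514 FPKM in STZ libraries and 393 to 413 FPKM in control libraries, most of it from Aif1, which made up at least 82.2% of the sum in control libraries. Without Aif1, left out after its values were seen, the sum was 146, 273 and 252 FPKM in STZ libraries, against 69.9, 66.6 and 70 FPKM in control libraries, and 54.7 to 81.9 FPKM in the other groups. STZ replicate 1 was thus the lowest STZ library for this sum as for the heavy chains. Expressed as a percentage of that sum, H2-D1 was at 39.4, 35.8 and 39.1% in STZ libraries, against 44.6, 32.2 and 42.4% in control libraries, and H2-K1 at 27.9, 28.8 and 29.4% in STZ, against 38.1, 39.8 and 45.3% in control. Tapbp was at 26.5, 14.8 and 15.9% in STZ libraries, against 29.2, 32.9 and 32% in control libraries. Which way the percentages differ depends on Aif1. Against the whole sum, H2-K1 was at 8.54, 15.3 and 15.1% in STZ libraries, against 6.79, 6.71 and 7.68% in control libraries. The log2 difference of STZ minus control was 0.83 for H2-K1, 1.30 for H2-D1 and 0.58 for Tapbp with Aif1 in the sum, and −0.52, −0.05 and −0.77 in the same order without it. Psmb8 alone of the 8 was positive either way, at 1.63 with Aif1 and 0.28 without it.

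Of the T and NK cell genes, whose receptors read class I, 3 of 15 were tested and none was called; their sum was 7.42 to 11.2 FPKM in STZ libraries and 7.58 to 9.01 FPKM in control libraries. B cell genes summed to 2.96 to 3.31 FPKM in STZ and 3.25 to 5.27 FPKM in control, and dendritic cell genes to 7.43 to 8.36 FPKM in STZ and 5.7 to 5.92 FPKM in control, with 1 gene tested in each list and none called. Zbtb46 made up 48.3 to 62.7% of the dendritic cell sum in STZ and 68.8 to 72.5% in control. Itgax, under the filter and so not tested, was at 1.23, 0.95 and 2.19 FPKM in STZ libraries, against 0.27, 0.22 and 0.32 FPKM in control libraries. The other dendritic cell genes overlapped between STZ and control. Endothelial genes had 7 of 9 higher (sum 20.9 to 27.2 FPKM in STZ, 13.9 to 15.8 in control) and peritubular myoid and fibroblast genes 7 of 11 (216 to 329 FPKM in STZ, 99 to 104 in control). All 12 Sertoli cell genes were higher (1788 to 2291 FPKM in STZ, 721 to 790 in control), as were 5 of 6 spermatogonia genes (140 to 164 FPKM in STZ, 87.9 to 102 in control). All 6 round spermatid and all 8 elongating spermatid genes were lower, the round spermatid sum being 853 to 1062 FPKM in STZ and 1186 to 1232 in control. Spermatocyte genes had 1 higher and 1 lower of 7 (539 to 621 FPKM in STZ, 587 to 630 in control). The Leydig cell sum split the STZ libraries, at 1799, 12010 and 12810 FPKM against 3523 to 4045 FPKM in control libraries, with 1 of 8 genes higher and STZ replicate 1 again on the low side. Insl3 made up 87.5 to 91.3% of this sum in STZ and 82.3 to 83.1% in control libraries. The median log2 fold change of the 8 Leydig genes was 0.14. Erythrocyte genes had 1 of 4 higher (61.6 to 396 FPKM in STZ, 99.8 to 141 in control), adipose genes 0 of 5 (17.9 to 169 FPKM in STZ, 17 to 33.7 in control) and epididymis genes 1 higher and 1 lower of 5 (263 to 377 FPKM in STZ, 276 to 486 in control). No gene of these lists was at 0 in every library.

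The genes outside the lists whose profiles over the 18 libraries were most like the average of the 8 were Snx7, Chchd2, Arfip2, Nhp2, Hmg20b, 9130401M01Rik, Polr2j and Gamt. The measure was the mean absolute difference between profiles on the log2 scale, each relative to its control mean, over 9882 candidate genes. It was 0.136 for Snx7 and 0.162 for Gamt, against a median of 0.364 over the candidates, and from 0.144 (Tap2) to 0.388 (Tap1) for the 8 genes themselves. The average profile of the 8 stood at −0.01 in STZ+AOS, 0.22 in STZ+AOS-FMT, 0.30 in STZ+control-FMT, 0.96 in STZ and 0.34 in AOS, relative to control.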

How the data were processed

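The authors deposited 1 table with 1 value per gene and library, whose header names no unit. The deposited values were taken as FPKM since low values come in multiples of a step that shrinks as the transcript gets longer; RPKM would look the same. Per the submitters' processing notes, mm10 and the aligner Bowtie 0.12.2 are listed with no role, and the tool that counted reads is not given in the sources used here. Per the labels' protocols, frozen testes were extracted with Trizol and a column kit, and 1 µg of RNA went into an Illumina library.

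The 18 libraries entered 1 limma-trend model (limma 3.58.1, R 4.3.3) of log2(value + 1) with a mean per group, for the 14164 of 20985 genes that reached 1 in no fewer than 3 libraries; 395 genes were at 0 throughout. Tests were two-sided, with Benjamini-Hochberg adjustment over all genes within a comparison and a threshold of 0.05. The model was tested on simulated data. Ratios were tested by exact permutation. Levels were summarised with Python 3.11.15, pandas 2.3.3 and scipy 1.17.1, promoters were aligned with Biopython 1.88, and figures were drawn with matplotlib 3.10.9. Replicate correlations of log2 values lay between 0.9782 and 0.9946 and at most 0.812% of values were identical, so no library was counted as a copy of another. Coordinates are from GENCODE M21 and promoter sequences from RefSeq (GRCm38.p6).

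The members, the gene lists and the tests were chosen with earlier results of these data known. From each of the 7 pathway lists, the rule named the 4 genes with the smallest p in STZ over control and a set always given (such as Nlrc5, Irf1, Psmb10, Ifng and Cd74); some genes that it names are not reported here. The comparisons of treated STZ groups with STZ share its libraries, and those with control share control libraries. Alternatives were the pseudocount, the filter, the scaling, the samples fitted, the replicate block and leaving out libraries.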

Additional observations from a re-analysis of the deposited data

Results flagged for a closer look

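For 7 of the 8 genes the effect of AOS in STZ mice differed from its effect in mice without STZ, by the interaction term of the limma model (adjusted p under 0.05), against 29.1% of all genes called in the same direction. B2m lost its call in 11 of 20 alternatives, and Psmb9 lost it under quantile normalization (adjusted p = 0.0683). The difference, STZ+AOS over STZ minus AOS over control on the log2 scale, was −1.20 for B2m, −1.25 for H2-K1, −1.42 for H2-D1, −1.54 for Tap2, −0.65 for Tapbp, −1.67 for Psmb8 and −1.52 for Psmb9. For H2-K1, H2-D1, B2m and Tapbp the AOS effect without STZ was between −0.06 and 0.20, so the term is close to the STZ+AOS effect itself. For Tap2, Psmb8 and Psmb9 the AOS effect without STZ was 0.49, 0.56 and 0.64, none called, and adds to the size of the term. The STZ libraries enter the term directly, and STZ replicate 1 is the lowest of them for H2-K1, H2-D1, B2m, Tapbp and Psmb8.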

How the results depend on the processing

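Over the alternatives, 159 of the counts of called members stayed within 1.5 times and 10 were smaller; of the fold changes of single members 1069 kept their side of the threshold, 48 lost it and 5 gained it, and no called one changed sign. H2-K1, H2-D1 and Tapbp kept their calls in STZ over control, in the 3 comparisons with STZ and in the interaction under the alternatives run, and Psmb8 kept them in all of these but STZ+control-FMT over STZ, where it lost the call in 10 of 13.

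With a filter at 5 in place of 1, which tests 5 of the 8 members, 4 were called in STZ+AOS over STZ, 3 in STZ+control-FMT over STZ and 4 in the interaction. STZ+control-FMT over STZ also fell to 3 members under quantile normalization and under median centring. Leaving out the 3 libraries high in Crisp1 leaves 1 STZ+control-FMT library, assumed to vary like the other groups, so no count is given for that fit. Leaving out each library in turn gave 5 to 7 members in STZ over control, 6 to 7 in STZ+AOS over STZ, 4 to 6 in STZ+AOS-FMT over STZ, 3 to 6 in STZ+control-FMT over STZ, 6 to 8 in the interaction, 4 to 7 in the F test and 0 to 0 in the other comparisons. Psmb8 over Psmb5 fell to 0.95 (log2) when 1 was added to each level, and leaving out libraries gave 1.22 to 1.92 for it, 0.24 to 1.18 for Psmb9 over Psmb6 and 0.99 to 1.47 for Psmb10 over Psmb7. The cause was not tested.

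Relative to the macrophage sum, STZ minus control (log2) was 0.75 for B2m, 0.83 for H2-K1, 1.30 for H2-D1, 0.22 for Tap1, 1.10 for Tap2, 0.58 for Tapbp, 1.63 for Psmb8 and 0.62 for Psmb9 with Aif1, and −0.59, −0.52, −0.05, −1.12, −0.25, −0.77, 0.28 and −0.73 in the same order without it, an exclusion chosen after seeing the data.

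Fitting only the groups compared called 5209 genes in STZ over control against 7823, 5013 against 7786 in STZ+AOS over STZ, 5299 against 8011 in STZ+AOS-FMT over STZ, 4248 against 7257 in STZ+control-FMT over STZ and 89 against 6 in STZ+AOS over control. STZ+AOS over control had 12 called genes under median centring, 0 without STZ+AOS replicate 2 or control replicate 1 and 1 without control replicate 2; the 4 comparisons with no called gene had at most 6 in any alternative. No count is given for STZ+control-FMT over STZ with the 3 libraries high in Crisp1 left out, which leaves 1 library in its group. No pairing of same-numbered libraries was detected (45 pairs, correlation −0.205 to 0.201, 2 over 0.1), which does not exclude a small shared effect. With the replicate block 7742 genes were called in STZ over control. Members called were then 6, 7, 6, 5 and 7 in STZ over control, the 3 comparisons with STZ and the interaction, as without it. Read depth is unknown, so no counting error can be given for Tap1, Tap2, Psmb8 and Psmb9, which go below 1 FPKM.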
